A study of Homo sapiens with 4 samples.

Results

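The genes described are 10 long noncoding RNAs that carry small nucleolar RNAs (snoRNAs) in their introns: GAS5, SNHG1, SNHG5, SNHG6, SNHG16, ZFAS1, SNHG12, SNHG3, SNHG8 and SNHG15. They were chosen by name as hosts known to be degraded by nonsense-mediated decay while translation runs, and all 10 were found among the 62710 Ensembl genes of the table. The libraries are poly(A) RNA-seq of 2 established human cell lines from stomach cancer, HGC27 (undifferentiated, grown from a metastatic lymph node) and MKN45 (from a poorly differentiated adenocarcinoma). Each line was kept for 24 h either in 0.3 µM periplocymarin, a cardiac glycoside that blocks the sodium-potassium pump, or in 0.1% DMSO, the vehicle, in RPMI-1640 with fetal bovine serum. There was 1 library per line and treatment, 4 in all, so no replicate stands behind a difference seen in 1 line, and each line is a single model of its cancer.

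A snoRNA host is transcribed and spliced like a messenger RNA. The introns release box C/D snoRNAs, which guide methylation of ribosomal RNA, or box H/ACA snoRNAs, which guide its pseudouridylation, and the joined exons go to the cytoplasm. There ribosomes can translate a short reading frame, stop far upstream of the remaining exon junctions, and so mark the RNA for decay by the UPF and SMG proteins. For this reason such hosts are known to accumulate when translation elongation or the decay pathway is blocked. Many of them also begin with a pyrimidine tract, like the messenger RNAs of ribosomal proteins.

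The first reading frames show what the decay machinery would meet, and 3 are printed, for members whose levels differ most between the treated and vehicle libraries of a line. Each is the frame from the first ATG of the GENCODE 29 transcript matched to the lowest-numbered RefSeq record of the gene, with 10 bases on either side, and capitals mark the ATG and its stop.
SNHG1: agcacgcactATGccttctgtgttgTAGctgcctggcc
SNHG8: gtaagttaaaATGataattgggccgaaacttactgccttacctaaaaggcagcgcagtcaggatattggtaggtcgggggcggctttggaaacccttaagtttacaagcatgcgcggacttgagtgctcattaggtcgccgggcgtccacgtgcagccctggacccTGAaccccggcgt
SNHG15: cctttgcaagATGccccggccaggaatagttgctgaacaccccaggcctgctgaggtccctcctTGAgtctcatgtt
The frame is 5 codons long in this SNHG1 transcript, with 9 exon junctions more than 50 nucleotides after the stop. It is 52 codons in SNHG8, with 2 such junctions, and 18 codons in SNHG15, with 1. SNHG3 is the exception among the transcripts picked this way, with 23 codons and no such junction, its last junction lying 23 nucleotides after the stop. Over the 133 spliced transcripts annotated for the 10 genes, 115 (86.5%) had at least 1 junction more than 50 nucleotides after the first frame's stop. The share was 71.2% over 25531 spliced transcripts of 12627 other long noncoding genes, so the feature is common among them too.

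The starts of the genes differ. Windows from 10 bases before to 20 bases from the annotated RefSeq start (build GRCh38.p14) are printed for 5 members to show the pyrimidine tract where the annotation has one. Capitals mark a C followed by at least 4 C or T that begins within 3 bases of the start.
SNHG5, chr6:85678714-85678743, minus strand: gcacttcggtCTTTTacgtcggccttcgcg
ZFAS1, chr20:49278632-49278661, plus strand: gccattcgttCTTTCgcgtctgcggtgccc
SNHG12, chr1:28581854-28581883, minus strand: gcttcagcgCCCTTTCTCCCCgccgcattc
SNHG1, chr11:62855866-62855895, minus strand: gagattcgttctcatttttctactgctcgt
SNHG8, chr4:118278752-118278781, plus strand: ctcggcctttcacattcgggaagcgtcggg
SNHG5, ZFAS1 and SNHG12 were the 3 of 8 members in the promoter table that had such a tract, against 13.0% of 35116 promoters. SNHG6 and SNHG15 are not among the 8. The same 3 genes hold TATATAA, on either strand, between 250 bases before and 50 bases after the start, which 2.57% of all promoters do. This motif was chosen after the sequences had been seen. GGGCGG was found in 6 of the 8, against 44.95% of all promoters, CCGGAA in 2 (17.2% of all), and neither CACGTG (7.26% of all) nor TGATGCAA (0.866% of all) in any. The annotated start decides these matches, and for GAS5 the RefSeq start lies upstream of the GENCODE 29 gene. For the 5 printed members the GENCODE 29 gene instead begins upstream of the window. It does so by the most for SNHG12 (28583132) and ZFAS1 (49278178), both among the 3 with the tract.

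Values are FPKM, a read count divided by gene length and by an adjusted library size. The read counts behind them were recovered from the steps between values and came to between 24800683 and 36424628 per library. The 10 genes took 59515 of the recovered reads in vehicle HGC27, 33621 in treated HGC27, 36241 in vehicle MKN45 and 32596 in treated MKN45. GAS5 and SNHG1 made up 57.4% of these reads in vehicle HGC27 and 40.6% to 45.2% in the other libraries. As a check of the lines, 4 of 5 mesenchymal markers were at 1 FPKM or more in both HGC27 libraries and none of 6 epithelial markers, with summed levels of 572 and 748 FPKM against 0.779 and 0.528 FPKM. In MKN45 all 6 epithelial markers and no mesenchymal marker reached that level, with summed epithelial levels of 2319 and 3801 FPKM. No leukocyte or endothelial marker reached it in any library. Differences are treated minus vehicle in units of log2(FPKM + 1), and the call within a line is a size of 1 or more in either direction. An interval after a fold is the 95% Clopper-Pearson interval of the reads and covers counting error only. Fewer cells of a state and less RNA per cell cannot be told apart in such bulk libraries.

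In vehicle HGC27 the host with the most RNA per length was SNHG1 at 135 FPKM, followed by GAS5 at 106 FPKM. SNHG6 (37.8 FPKM), ZFAS1 (27.97), SNHG3 (26.6), SNHG16 (20.7) and SNHG15 (20.2) followed, then SNHG8 (9.38), SNHG12 (7.87) and SNHG5 (4.34). In vehicle MKN45 the order began with GAS5 at 48.9 FPKM and SNHG1 at 43.1 FPKM. It went on with SNHG6 (24.6 FPKM), SNHG3 (24.0), SNHG15 (19.2), SNHG16 (18.1), ZFAS1 (12.0), SNHG8 (9.02), SNHG12 (6.29) and SNHG5 (3.48). SNHG6 came next after GAS5 and SNHG1 in both lines, and SNHG8, SNHG12 and SNHG5 held the last 3 places. With 1 library each, which neighbours in these orders differ beyond the spread between cultures cannot be said. The length enters every level, and the recovered lengths were 12604 bases for SNHG5, 8315 for ZFAS1 and 6614 for SNHG8, against 2806, 2243 and 923 exon bases in GENCODE 29. The low rank of SNHG5 therefore goes with a long gene model: its 1765 reads in vehicle HGC27 are close to the 2001 of SNHG8 and above the 1083 of SNHG12. For GAS5 (4932 bases), SNHG1 (3976), SNHG15 (3943) and SNHG8 the recovered length is close to or above the whole GENCODE 29 gene span. Reads from introns or unspliced RNA may therefore be part of these levels and cannot be told apart from spliced RNA.

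**Figure D1:**
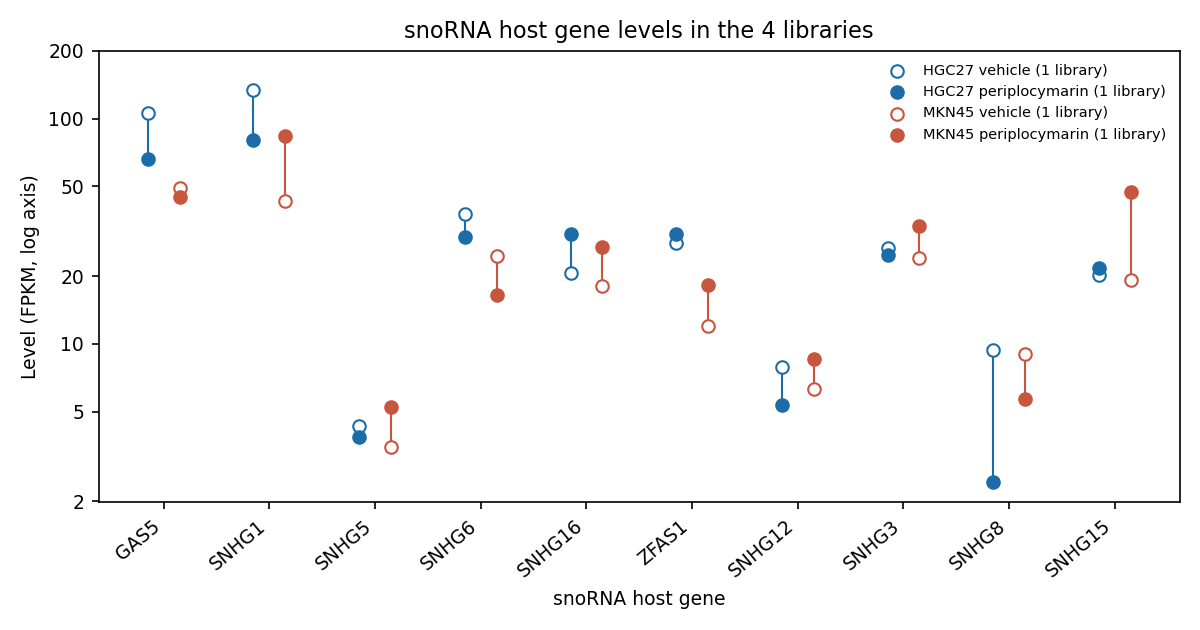
Level of each snoRNA host gene in FPKM (log axis) in the 4 libraries, 1 point per library, with a line joining vehicle (open) and periplocymarin (filled) of the same cell line. SNHG8 spans the widest range in HGC27, from 9.38 to 2.43 FPKM, and SNHG15 in MKN45, from 19.2 to 47.4 FPKM, while treated SNHG1 lies below its vehicle in HGC27 and above it in MKN45.

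The vehicle libraries of the lines, 1 each, stood at different levels of 3 hosts whose snoRNAs are mostly box C/D. SNHG1 was 3.13-fold higher in vehicle HGC27 than in vehicle MKN45 (interval 3.04 to 3.22), ZFAS1 2.33-fold (2.24 to 2.42) and GAS5 2.17-fold (2.11 to 2.22). These 3 of 10 were past a log2 difference of 1 (1.62, 1.16 and 1.10) and none was past it the other way. Of 13031 genes 14.3% were past it toward HGC27 and 17.4% toward MKN45, 31.6% in all, so the count of 3 in 10 is near the background in either direction. The median difference over the 10 was 0.27, against -0.039 over all measured genes. SNHG8 and SNHG15 were level between the lines within counting error, at 1.04-fold (0.978 to 1.10) and 1.05-fold (0.999 to 1.11) on the deposited scale, while with library totals alone their log2 differences were 0.28 and 0.32.

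Over both lines, no host gene passed the test of treatment. All 10 averaged 1 FPKM and 10 reads or more and were tested with limma on log2(FPKM + 1) and cell line as a block, and 0 of 10 had a Benjamini-Hochberg adjusted p under 0.05, against 6.61% of 12353 genes. SNHG8 was the 1 member with an unadjusted p under 0.05, and limma-voom on recovered reads also called 0 of 10, with 2 at an unadjusted p under 0.05. Fitted differences were above 0 for 6 of the 10 and below 0 for 4, and above 0 for 6667 of all 12353 genes, so the count is near the background. The median of the 10 was 0.14 against 0.062 over all genes tested. The median of the 10 turned to -0.14 with library totals alone and to -0.18 with quantile normalization. The error after ± is the moderated standard error from limma, which borrows from the variance of all genes tested, with 8.53 prior and 1 residual degree of freedom. With 2 lines as the units of each arm, the data do not show that these genes were unaffected.

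Within HGC27, 7 of the 10 hosts were below their vehicle level and 3 above, against 44.6% of 11821 measured genes below, with a median difference of -0.24 against 0.11. Within MKN45, 7 were above and 3 below, against 53.5% of 11895 measured genes above, with a median of 0.47 against 0.068. These contrasts depend on abundance. Among genes averaging 10 FPKM or more in the line, the median in HGC27 was -0.10 for 7 hosts and 0.48 for all genes. In MKN45 it was 0.54 and 0.35. SNHG8 was the 1 host past a difference of 1 in HGC27, downward, where 10.4% of measured genes were past it downward, 9.72% upward and 20.1% in all. SNHG15 was the 1 in MKN45, upward, where 8.21% were past it upward, 8.94% downward and 17.2% in all. Each count of 1 in 10 is near the background. Scaling the libraries to their totals alone moved the median of all genes from 0.11 to -0.18 in HGC27 and from 0.068 to -0.12 in MKN45, and directions that turn with it are named below.

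Among hosts of mostly box C/D snoRNAs, GAS5 is an RNA that gathers in growth-arrested cells and can bind the glucocorticoid receptor. It was at 106 FPKM in vehicle and 65.8 FPKM in treated HGC27. In MKN45 it was at 48.9 and 45.04 FPKM. Both treated libraries were below their vehicles, by 1.61-fold in HGC27 (interval 1.57 to 1.66) and 1.09-fold in MKN45 (1.05 to 1.12). In HGC27 the log2 difference was -0.68, and it was -1.02 with library totals alone and -1.21 with quantile normalization. The fitted difference over both lines was -0.40 ± 0.28 and did not pass (limma adjusted p = 0.379). RefSeq places 11 snoRNAs in GAS5, the most of any member, 10 of them SNORD genes and 1 a SNORA gene, SNORA103.

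SNHG1, host of 8 SNORD genes including SNORD22, lay on opposite sides of its vehicle in the lines. It was at 135 FPKM in vehicle and 80.5 FPKM in treated HGC27, and at 43.1 FPKM in vehicle and 83.6 FPKM in treated MKN45. The treated libraries thus stood within a few FPKM of each other, while the vehicles differed 3.13-fold. The fold was 1.67 downward in HGC27 (1.63 to 1.72) and 1.94 upward in MKN45 (1.88 to 2.01). The fitted difference was 0.10 ± 0.38 (limma adjusted p = 0.883), the widest standard error among the 10. It was -0.18 with library totals alone and -0.37 with quantile normalization, while the 2 lines kept opposite signs on each of these scales.

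SNHG16, host of SNORD1A, SNORD1B and SNORD1C, was higher in both treated libraries, by nearly the same amount on the deposited scale. It was at 20.7 (vehicle) and 30.7 (treated) FPKM in HGC27, with 18.1 and 26.8 FPKM in MKN45, which is 1.48-fold in each line (intervals 1.42 to 1.55 in both). The fitted difference was 0.54 ± 0.27 (limma adjusted p = 0.222), and it was 0.27 with library totals alone and 0.15 with quantile normalization. The log2 differences in HGC27 and MKN45 were then 0.21 and 0.33 with library totals alone and 0.10 and 0.20 with quantile normalization. ZFAS1, which hosts the SNORD12 family and lies antisense to ZNFX1, was at 27.97 (vehicle) and 30.9 (treated) FPKM in HGC27, with 12.0 and 18.2 FPKM in MKN45. Its fold was 1.10 in HGC27 (1.07 to 1.14) and 1.52 in MKN45 (1.45 to 1.59), and its log2 difference in HGC27 turned below 0 with library totals alone or quantile normalization. Its fitted difference of 0.35 ± 0.28 did not pass (limma adjusted p = 0.442).

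SNHG6, host of SNORD87, was lower in both treated libraries, at 37.8 (vehicle) and 29.7 (treated) FPKM in HGC27, with 24.6 and 16.5 FPKM in MKN45. That is 1.27-fold (1.20 to 1.35) and 1.49-fold (1.38 to 1.60), with a fitted difference of -0.44 ± 0.28 (limma adjusted p = 0.317). In HGC27 its log2 difference of -0.34 was -0.67 with library totals alone and -0.87 with quantile normalization. SNHG5, host of SNORD50A and SNORD50B, was at 4.34 (vehicle) and 3.84 (treated) FPKM in HGC27, with 3.48 and 5.24 FPKM in MKN45. It was 1.13-fold lower in HGC27 (1.05 to 1.22) and 1.51-fold higher in MKN45 (1.41 to 1.62), with a fitted difference of 0.17 ± 0.30 (limma adjusted p = 0.746). SNHG12 carries both classes, SNORD99 with SNORA16A, SNORA44 and SNORA61. It was at 7.87 and 5.35 FPKM in HGC27, 1.47-fold lower (1.32 to 1.63), and at 6.29 and 8.60 FPKM in MKN45, 1.37-fold higher (1.25 to 1.499). Its fitted difference was -0.042 ± 0.32 (limma adjusted p = 0.949).

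The box H/ACA hosts held the largest differences of either sign. SNHG8, host of SNORA24, was at 9.38 FPKM in vehicle and 2.43 FPKM in treated HGC27, and at 9.02 and 5.70 FPKM in MKN45. The vehicles were level, and both treated libraries were lower, by 3.85-fold in HGC27 (3.45 to 4.31, from 2001 and 379 reads) and 1.58-fold in MKN45 (1.46 to 1.71). Its difference of -1.60 in HGC27 was lower than that of all but 2.90% of measured genes. The fitted difference was -1.09 ± 0.33 and did not pass (limma adjusted p = 0.0703). With library totals alone it passed at -1.33 (limma adjusted p = 0.0138), and over the alternatives that tested it the adjusted p ran from 0.0138 to 0.828.

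SNHG15, a short-lived RNA that hosts SNORA9, was at 20.2 (vehicle) and 21.6 (treated) FPKM in HGC27, with 19.2 and 47.4 FPKM in MKN45. The other 3 libraries were thus close together and treated MKN45 stood apart, 2.47-fold above its vehicle (2.35 to 2.59). In HGC27 the fold was 1.07 (1.01 to 1.13), and the log2 difference turned below 0 with library totals alone or quantile normalization. The MKN45 log2 difference of 1.26 was 1.04 with library totals alone and 0.89 with quantile normalization, where it is no longer past 1. The fitted difference was 0.68 ± 0.33 (limma adjusted p = 0.215), and it was 0.28 with quantile normalization. SNHG3, host of SNORA73A and SNORA73B, was at 26.6 and 24.7 FPKM in HGC27, 1.077-fold lower (1.02 to 1.13), and at 24.0 and 33.5 FPKM in MKN45, 1.40-fold higher (1.33 to 1.47). Its fitted difference was 0.18 ± 0.29 (limma adjusted p = 0.710).

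**Figure D2:**
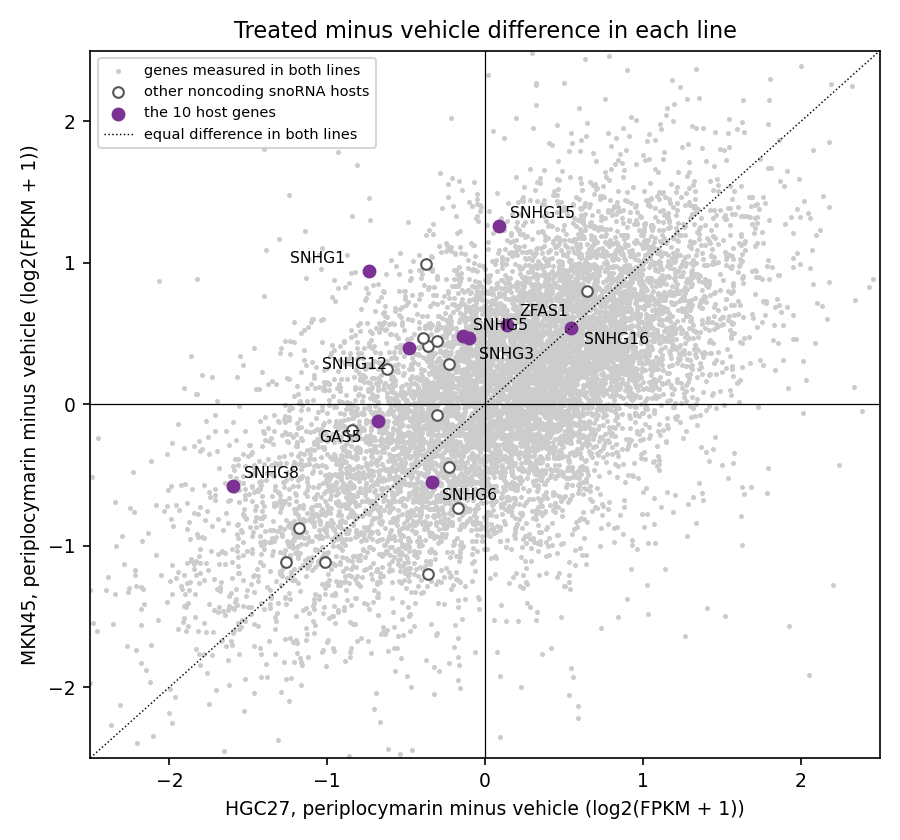
Treated minus vehicle difference on the log2(FPKM + 1) scale in HGC27 (horizontal) and MKN45 (vertical) for the 10 host genes (filled), other noncoding snoRNA hosts (open) and all genes measured in both lines (grey; points beyond the axes are not drawn). Of the 10 host genes 8 lie above the dotted line of equal difference, SNHG1 farthest from it.

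The treatment difference was lower in HGC27 than in MKN45 for 8 of the 10, against 47.7% of 10071 genes measured in both lines, with SNHG6 and SNHG16 the exceptions. The median gap, HGC27 minus MKN45, was -0.59 over the 10 and 0.033 over all genes. With library totals alone 9 of the 10 had the lower difference in HGC27 (54.6% of genes), and with quantile normalization 10 of 10 (50.3%). Among other noncoding snoRNA hosts 11 of 15 did. SNHG1 had the widest gap, -1.68, reached in size by 2.01% of genes, followed by SNHG15 at -1.17 (7.33%), SNHG8 at -1.02 (11.2%) and SNHG12 at -0.88 (16.0%). The gaps of the other 6 were reached in size by 30.3% (SNHG5) to 99.3% (SNHG16) of genes. Opposite signs in the 2 lines were seen for 4 of the 10 (SNHG1, SNHG5, SNHG12 and SNHG3), against 27.1% of genes. With 4 libraries the difference between lines could not be tested.

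On the CPM scale, recovered reads were brought to the same total in each library. Neither gene length nor the adjusted library size behind the FPKM values enters it. The 10 genes together stood at 2228 in vehicle and 1356 in treated HGC27, and 995 and 1182 in MKN45. Summed in FPKM, the fall in HGC27 was smaller, from 396 to 296, and MKN45 went from 209 to 291. Dividing by totals also put the median log2 difference of all measured genes in HGC27 at -0.18, against 0.11 for the deposited values. The treated libraries are closer to each other than the vehicles are in both sums, for which no background of other genes was taken. Most of the CPM difference in HGC27 lies in GAS5, at 632 with vehicle and 308 treated, and in SNHG1, at 646 and 304.

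**Figure D3:**
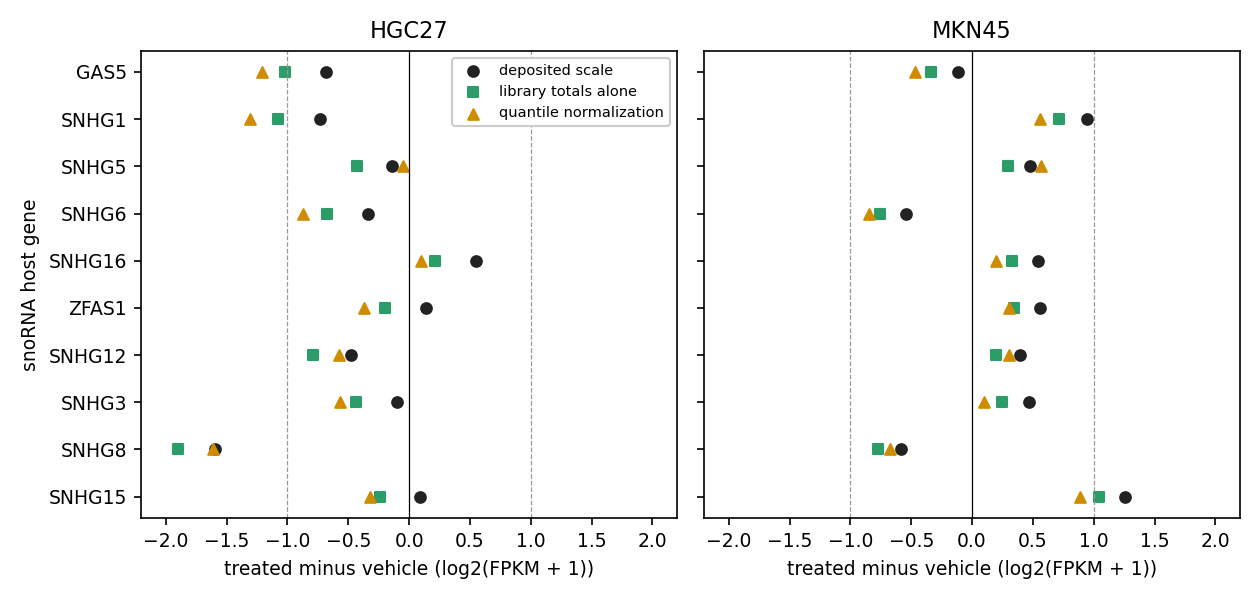
Treated minus vehicle difference (log2(FPKM + 1)) of each host gene in HGC27 (left) and MKN45 (right) on the deposited scale, with library totals alone and with quantile normalization; dashed lines mark a difference of 1 in either direction. SNHG8 in HGC27 stays past -1 on all 3 scales, GAS5 and SNHG1 pass it on 2 of them, and ZFAS1 and SNHG15 change side of 0 in HGC27.

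The other noncoding snoRNA hosts in the comparison were further SNHG genes and related hosts, which were listed with no requirement of known sensitivity to decay. Of 15 tested, 1 fell and none rose, with a median fitted difference of -0.19 (3.43% of all genes rose and 3.17% fell). The one that fell was SNHG7, by 1.19 ± 0.28 (limma adjusted p = 0.0411), with 10.98 (vehicle) and 4.0 (treated) FPKM in HGC27 and 23.1 and 10.1 FPKM in MKN45. With library totals alone, or with a pseudocount of 0.1, 3 of 15 fell (SNHG7, SNHG11 and SNHG19), and with quantile normalization 2 did. Of all 12353 genes, 1181 fell with library totals alone, 730 with a pseudocount of 0.1 and 351 with quantile normalization. The median of the 15 was -0.37 with library totals alone, against -0.16 over all genes tested. In HGC27 15 of 16 measured were below their vehicle, against 44.6% of all measured genes. With library totals alone it was again 15 of 16, against 59.9% of genes, and with quantile normalization 12 of 16, against 47.8%. SNHG29, the most abundant, was at 118 (vehicle) and 100.3 (treated) FPKM in HGC27, with 60.6 and 44.3 FPKM in MKN45. It was named after its values had been seen.

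Coding genes that host snoRNAs in their introns had a median fitted difference of 0.24. Of 38 tested 1 rose and 1 fell. NOP56, a core protein of box C/D particles that also hosts snoRNAs, rose by 1.54 ± 0.30 (limma adjusted p = 0.0266), with 62.3 (vehicle) and 135 (treated) FPKM in HGC27 and 27.4 and 111 FPKM in MKN45. HSPA8, the constitutive HSP70 chaperone and host of SNORD14, fell by 1.65 ± 0.27 (limma adjusted p = 0.0237), with 108 (vehicle) and 34.9 (treated) FPKM in HGC27 and 201 and 61.0 FPKM in MKN45. In HGC27 31 of the 38 were above their vehicle and in MKN45 20, whereas the noncoding hosts had the larger share above it in MKN45. Over all measured genes 6548 of 11821 were above it in HGC27 and 6364 of 11895 in MKN45. The medians of the 38 were 0.42 in HGC27 and 0.0052 in MKN45. Those of all genes averaging 10 FPKM or more in the line were 0.48 and 0.35. The list median turned to -0.042 with library totals alone and to -0.049 with quantile normalization, and NOP56 did not pass with quantile normalization (limma adjusted p = 0.0661), in a range of 9.73e-05 to 0.828 over the alternatives.

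The proteins that bind snoRNAs, 15 snoRNP proteins and assembly factors, had a median fitted difference of 0.46 (0.23 with library totals alone and 0.19 with quantile normalization), and NOP56 was the 1 that rose. The 14 others did not pass. Among them, chosen after its values were seen, was DKC1, the pseudouridine synthase of box H/ACA particles, at 24.3 (vehicle) and 39.6 (treated) FPKM in HGC27, with 18.3 and 55.6 FPKM in MKN45, with a fitted difference of 1.12 ± 0.31 (limma adjusted p = 0.0574).

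Of the decay machinery itself, 1 of 20 factors rose and none fell. UPF1, the helicase at the centre of nonsense-mediated decay, rose by 1.13 ± 0.29 (limma adjusted p = 0.0499), with 13.1 (vehicle) and 36.7 (treated) FPKM in HGC27 and 11.1 and 20.9 FPKM in MKN45. It lies at the threshold and did not pass with library totals alone (limma adjusted p = 0.0571) or quantile normalization (0.113), in a range of 0.00223 to 0.828 over the alternatives. The other 19 did not pass. Of the 20 fitted differences 16 were above 0, against 6667 of all 12353 genes tested. The median was 0.54 for the 20 and 0.062 for all genes tested. The median of the 20 was 0.26 with library totals alone and 0.27 with quantile normalization. Several UPF and SMG messenger RNAs are known targets of the pathway themselves. Of these, chosen after its values were seen, SMG5 was at 25.9998 (vehicle) and 54.9 (treated) FPKM in HGC27, with 26.8 and 50.6 FPKM in MKN45 (limma adjusted p = 0.0608). With the test limited to genes averaging 10 FPKM or more, where the median of all was 0.38 and 23.7% of 4453 genes rose, 6 of 13 decay factors rose and none fell. Under the same limit 8 of 38 coding snoRNA hosts and 4 of 11 snoRNP proteins rose, and none of 7 host genes did.

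Of 7 coding transcripts used as decay targets in other work, 1 rose and none fell. GADD45B, a growth arrest and stress gene, rose by 2.23 ± 0.43 (limma adjusted p = 0.0265), with 3.90 (vehicle) and 10.2 (treated) FPKM in HGC27 and 5.90 and 65.0 FPKM in MKN45. The other 6 did not pass, and the list had a median of 0.041, which turned to -0.24 with library totals alone and to -0.40 with quantile normalization. DDIT3, a transcription factor of the stress response also called CHOP, lay at the threshold with a fitted difference of -1.09 ± 0.28 (limma adjusted p = 0.0502). It was at 47.6 (vehicle) and 24.8 (treated) FPKM in HGC27, with 23.4 and 9.21 FPKM in MKN45. It passed under 5 of 8 alternatives, with limma adjusted p from 0.00348 to 0.846 over all 8. GADD45A differed in sign between lines like SNHG1, at 38.0 (vehicle) and 20.7 (treated) FPKM in HGC27, with 31.3 and 60.6 FPKM in MKN45. DDIT3 and GADD45A were named after their values had been seen.

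**Figure D4:**
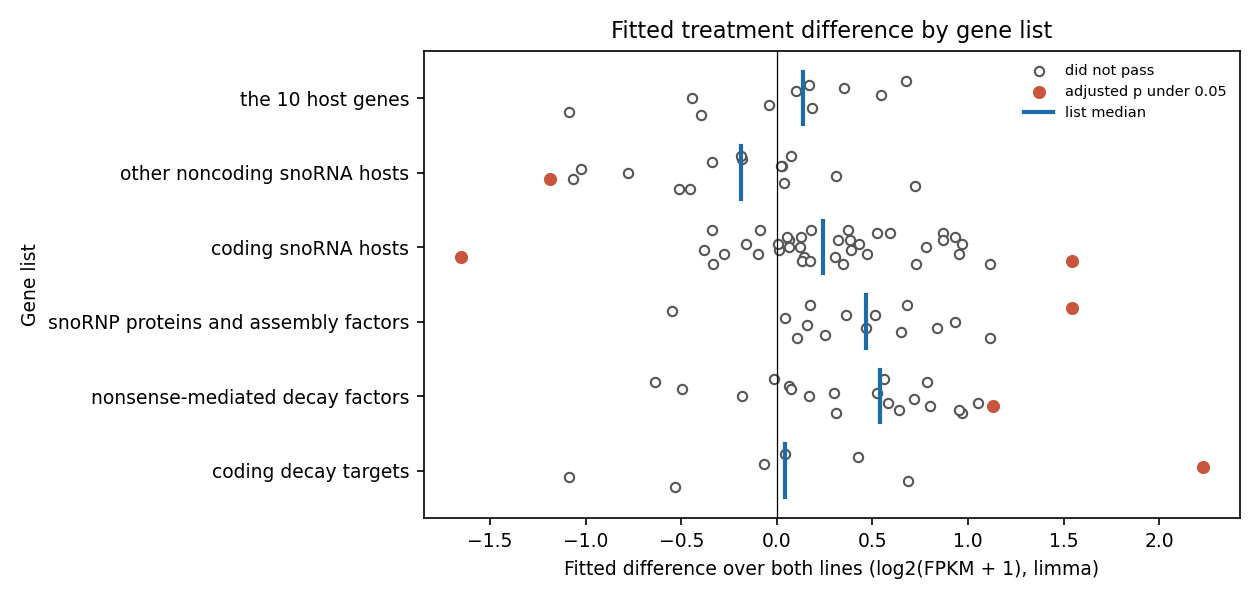
Fitted treatment difference over both lines (log2(FPKM + 1), limma with cell line as a block), 1 point per tested gene, by gene list; filled points have an adjusted p under 0.05 and the bar is the list median. None of the 10 host genes is filled, and on the deposited scale the median is 0.14 for them and 0.54 for decay factors.

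In GRCh38 with GENCODE 29, the largest member by span is SNHG5, on chromosome 6 from 85660950 to 85678748, minus strand. SNHG1 lies on chromosome 11 from 62851988 to 62855914, minus strand, its start 188 bases from that of SLC3A2, which runs the other way. SLC3A2, the heavy chain of amino acid transporters, was at 75.4 (vehicle) and 144 (treated) FPKM in HGC27, with 43.5 and 40.7 FPKM in MKN45, so in each line it lay on the other side of its vehicle from SNHG1. It did not pass the test (limma adjusted p = 0.411). SNHG8 is on the plus strand of chromosome 4 (118278709 to 118279823) and SNHG15 on the minus strand of chromosome 7 (44983023 to 44986961). No other long gene model of GENCODE 29 overlaps either. Their recovered lengths, 6614 bases for SNHG8 and 3943 for SNHG15, are longer than these spans. The models that were counted thus differ, and whether those overlap other genes is not known.

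Other members overlap neighbours, and no strand setting is given in the sources used here, so their reads cannot be told apart from those of the overlapping gene. GAS5, on chromosome 1 from 173863900 to 173868882, minus strand, overlaps ZBTB37 and GAS5-AS1, the latter at 0 to 0.433 FPKM. ZBTB37 was at 1.98 (vehicle) and 0.155 (treated) FPKM in HGC27, with 0.884 and 0.244 FPKM in MKN45. Like GAS5 it was lower in both treated libraries, and it averaged too low to be tested. ZFAS1 starts 248 bases from ZNFX1, which was at 2.59 (vehicle) and 7.14 (treated) FPKM in HGC27, with 2.70 and 5.42 FPKM in MKN45 and did not pass (limma adjusted p = 0.0688). SNHG3 overlaps RCC1, a chromatin-bound exchange factor for Ran, on the same strand, where a strand setting would not separate their reads either. RCC1 rose by 1.12 ± 0.28 (limma adjusted p = 0.0464), with 21.4 (vehicle) and 56.1 (treated) FPKM in HGC27 and 37.1 and 69.6 FPKM in MKN45, while SNHG3 did not pass. The RCC1 call was lost with library totals alone (limma adjusted p = 0.0514) and with quantile normalization (0.134), in a range of 0.00352 to 0.828. The SNHG12 gene overlaps TRNAU1AP, which was at 2.495 to 3.83 FPKM in all 4 libraries. SNHG6 overlaps MCMDC2, at most 0.024 FPKM, and SNHG16 overlaps an unnamed model on the opposite strand.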

How the data were processed

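The authors deposited 1 table of 62710 Ensembl genes by 4 libraries. Groups were taken from the sample titles. Per the labels' protocols, messenger RNA was captured on beads from total RNA. Tools listed per the submitters' processing notes are HISAT2 2.1.0 and fastp 2.0, with build hg38. Counter, annotation, strand setting and depth: not given in the sources used here. From the values, the authors deposited FPKM. The value of 1 read was found in each library from the steps between values, and each gene length was that of the GENCODE 29 exons where it gave whole reads, else the smallest that did (or its multiple within 10% of the exon length). Of 30457 expressed genes that GENCODE 29 lists, 15204 gave whole reads (within 0.0001) at the exon length. Once lengths were searched, all 20299 genes detected in 3 or more libraries did. The implied library sizes divided by recovered totals gave factors of 0.865 to 1.21, so the values were taken to carry a composition factor. Recovered reads are an inference and entered the main test only through its filter.

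The treatment effect was fitted with limma 3.58.1 (R 4.3.3; lmFit, eBayes with trend) to log2(FPKM + 1), blocking on the cell line, for genes averaging 1 FPKM and 10 recovered reads or more, with Benjamini-Hochberg adjustment over all 12353 genes. The 2 libraries of a line are paired by the line itself. Alternatives changed the scaling, filter, pseudocount, block or tool. Scripts were tested on simulated data. Symbols were matched for 62639 of 62710 identifiers. The genes named were the 10 hosts, genes of each list past the test, overlapping genes and the nearest opposite-strand coding start within 10 kb. The members and lists were chosen with earlier results of these data known. Nothing says whether libraries came from separate cultures, and no spread between cultures could be estimated. The p-values weigh a treatment difference against the disagreement of the 2 lines in it, with variance borrowed from all genes tested. A response in 1 line only therefore widens the error.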

Additional observations from a re-analysis of the deposited data

Results flagged for a closer look

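The 4 host genes whose treated library lay below its vehicle in HGC27 and above it in MKN45 were SNHG1, SNHG12, SNHG5 and SNHG3. The difference in response, HGC27 minus MKN45 on the log2(FPKM + 1) scale, was -1.68 for SNHG1, -0.88 for SNHG12, -0.62 for SNHG5 and -0.57 for SNHG3. With 1 library per line and treatment this difference was not tested, and 12.6% of genes measured in both lines had the same pair of signs. The 4 kept opposite signs with library totals alone and with quantile normalization, and ZFAS1 and SNHG15 joined them on both of those scales. Their differences in HGC27 were then -0.20 and -0.24 with library totals alone, and -0.37 and -0.32 with quantile normalization. The share of all genes with opposite signs was not counted on those scales.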

How the results depend on the processing

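No host gene passed under 7 of 8 alternatives, and SNHG8 passed with library totals alone (1 of 10). Without the line block (no replicate block) 0 of 10 host genes and 0 of 12353 genes passed with limma (696 at an unadjusted p under 0.05). With no low-value filter 0 of 32364 genes passed with limma (4306 at an unadjusted p under 0.05). Over all genes, 816 were called (52.0% upward), 531 with quantile normalization (33.9% upward), 1550 with library totals alone (23.8%), 1254 at a mean of at least 10 FPKM (84.1%), 1480 with a pseudocount of 0.1 and 1526 with limma-voom. Fitted differences changed sign for SNHG1, SNHG3 and ZFAS1 with quantile normalization (-0.37, -0.23 and -0.031) and for SNHG1, SNHG3 and SNHG5 with library totals alone (-0.18, -0.095 and -0.066), and for none of those tested under the others (7 at a mean of at least 10 FPKM, 10 otherwise). In HGC27, 3 host genes were past a difference of 1 with quantile normalization and 3 with library totals alone (GAS5, SNHG1 and SNHG8). Of all measured genes 16.1% and 20.5% were past it in either direction on those scales. At a mean of at least 10 FPKM, where SNHG8 is left out, 0 of 7 host genes were past it, against 22.6% of genes. In MKN45, 0 were past it with quantile normalization, against 14.5% of genes. The cause was not tested. Leaving out a library gives no residual degree of freedom with the line block, so no such fit was made. Depth limited little for these genes, whose smallest count was 379 reads.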

Other observations

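RefSeq places 37 snoRNAs within the 10 host genes, 28 SNORD and 8 SNORA by name and 1 unnamed locus. The table has 31 gene models with these symbols, some symbols on more than 1 model, and the match was by symbol, not by position. Of the 31, 2 reached 10 recovered reads in any library. SNORA73B, in SNHG3, had 85 and 34 reads in vehicle and treated HGC27 and 44 and 27 in MKN45, and SNORD99, in SNHG12, had 10, 9, 3 and 9 in the same order. Another 17 of the 31 stood at the worth of exactly 1 read in all 4 libraries, as did 117 of 528 SNORD and SNORA models in the whole table, so these low values were not read as levels.

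Of 4447 other genes averaging 10 FPKM or more, those nearest to the median host gene in the 2 treatment differences and the vehicle difference between lines (-0.24, 0.47 and 0.27) were CSNK1E, ABHD10, MPC1, TNFRSF10B and GUF1. Their distances on the log2(FPKM + 1) scale ran from 0.081 to 0.14. The likeness rests on 4 libraries, and the 10 host genes themselves vary widely about that median.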
